A study of Rattus norvegicus with 6 samples.

Results

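The gene table of this whole-transcriptome study of rat condylar cartilage held 44746 genes, and 5894 of them carried only an identifier of the StringTie assembly, beginning with MSTRG, and no gene symbol. These are stretches of the genome where the assembler joined reads into a transcript that did not receive the name of an annotated gene. The 5818 with a mean level of at least 0.1 FPKM (fragments per kilobase of transcript, scaled to the size of the library) over the 6 libraries are described here, and the remaining 76 lay under that minimum. None of the members carried an Ensembl transcript, a Gene Ontology term or a transcript type, so that position, length, level and change were all that the table gave on them.

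The condylar cartilage came from the temporomandibular joint of female Sprague-Dawley rats that were 6 weeks old at the start. The control (CON) group was labelled as control without further detail. The unilateral anterior crossbite (UAC) group wore a dental device that loads the joint unevenly for 8 weeks. Each group had 3 libraries of ribosomal RNA-depleted total RNA. How many rats stood behind one library was not clear from the sources, so p-values measure the spread between these libraries, which may be partly technical. The libraries held between 71524713 and 86523541 gene counts.

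Assembled transcripts without a symbol are a mixed class in any total RNA experiment. They are known to include long noncoding RNAs (lncRNAs), short transcripts that start beside the promoters of coding genes, antisense RNAs, unannotated ends of known genes, gene segments of variable families such as the immunoglobulins, and fragments of introns. A genome built from many individuals or an incomplete annotation adds further cases. A transcript with several exons has a strand because its splice sites have one, whereas a transcript with 1 exon may have none unless the library kit marks strand, and whether this kit did was not given in the sources used here.

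Cartilage, marrow and muscle genes were all present. Chondrocyte markers (9 of 9 found, among them Col2a1, the main collagen of cartilage, and Acan, its main proteoglycan) summed to between 2040 and 3071 FPKM in CON and between 1615 and 3203 FPKM in UAC, with Matn1 under 0.1 FPKM. Skeletal muscle markers (5 of 7 found) ranged from 79.0 to 176 FPKM in CON and from 27.3 to 268 FPKM in UAC. Erythroid markers (4 of 5 found) lay between 2375 and 4608 FPKM in CON and between 3752 and 4548 FPKM in UAC, and osteoclast markers (4 of 4) between 2221 and 2624 FPKM in CON and between 1668 and 2038 FPKM in UAC. Neutrophil markers (5 of 5, Ltf under 0.1 FPKM) lay between 1591 and 1799 FPKM in CON and between 1775 and 3204 FPKM in UAC, adipocyte markers (4 of 4) between 4.14 and 5.66 FPKM in CON and between 5.73 and 14.6 FPKM in UAC, and osteoblast markers (3 of 3) between 1773 and 2024 FPKM in CON and between 1448 and 1849 FPKM in UAC. The part of these differences in the results on all members was not tested. Fewer cells of a type and less RNA per cell cannot be told apart in such bulk samples.

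A pair of members that ended just before the start of a coding gene on the same strand were among the clearest decreases in UAC, and the sequence of those starts shows what lay beside them. MSTRG.3687 ended 88 bases before the row of Sf1, which encodes a splicing factor that binds the branch point of introns. MSTRG.2857 ended 16 bases before the row of Numa1, which encodes a protein that organises the poles of the mitotic spindle. The 300-base windows of RefSeq around the starts of both genes are given 5′ to 3′ for build GRCr8, covering 250 bases before the start and 50 bases after it. Matches to the CCAAT box or to the GC box (GGGCGG) are in capitals. The build of the gene table was not given in the sources used here, so the place of the members' last bases within these windows is not known.
Sf1, chromosome 1, plus strand, chr1:213099031-213099330: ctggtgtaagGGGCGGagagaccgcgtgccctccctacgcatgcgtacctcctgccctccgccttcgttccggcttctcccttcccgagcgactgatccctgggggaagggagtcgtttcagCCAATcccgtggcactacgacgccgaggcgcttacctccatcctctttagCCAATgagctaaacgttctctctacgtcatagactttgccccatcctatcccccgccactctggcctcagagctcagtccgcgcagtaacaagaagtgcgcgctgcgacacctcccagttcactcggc
Numa1, chromosome 1, plus strand, chr1:165738002-165738301: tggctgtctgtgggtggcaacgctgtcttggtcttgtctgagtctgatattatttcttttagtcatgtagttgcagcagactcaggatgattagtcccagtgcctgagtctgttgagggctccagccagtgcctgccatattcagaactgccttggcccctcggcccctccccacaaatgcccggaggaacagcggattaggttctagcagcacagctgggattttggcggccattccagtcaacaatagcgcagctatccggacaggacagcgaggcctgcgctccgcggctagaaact

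Both windows were searched on both strands for the TATA box (TATAAA), the CCAAT box (CCAAT), the GC box (GGGCGG) and the polyadenylation signal (AATAAA), and no match overlapped another. The Sf1 window held the GC box starting 240 bases before the start and the CCAAT box starting 128 and 78 bases before it. The Numa1 window held none of the 4 motifs. Among the 33469 rat promoter windows of the same table, 37.5% held the CCAAT box, 33.1% the GC box, 21.6% the polyadenylation signal and 14.2% the TATA box. The Sf1 window had a GC content of 61.3% and 25 CpG dinucleotides, the Numa1 window 55.3% and 11, against medians of 51.7% and 7 over all windows.

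Most members were short, single-exon and weakly expressed. The median span was 868.5 bases, with quartiles of 357 and 4008 bases, against a median of 9193 bases for the 24850 tested rows with a symbol. Spans ran from 200 bases, the length of 12 members, to 713586 bases. The median of the mean level was 1.43 FPKM against 2.39 FPKM for the named rows. Levels were packed into a narrow band, since the middle 80% of members lay between 0.803 and 3.14 FPKM, whereas the same share of named rows spread from 0.368 to 11.1 FPKM. In counts, a member had a median of 634 reads summed over the 6 libraries.

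**Figure D1:**
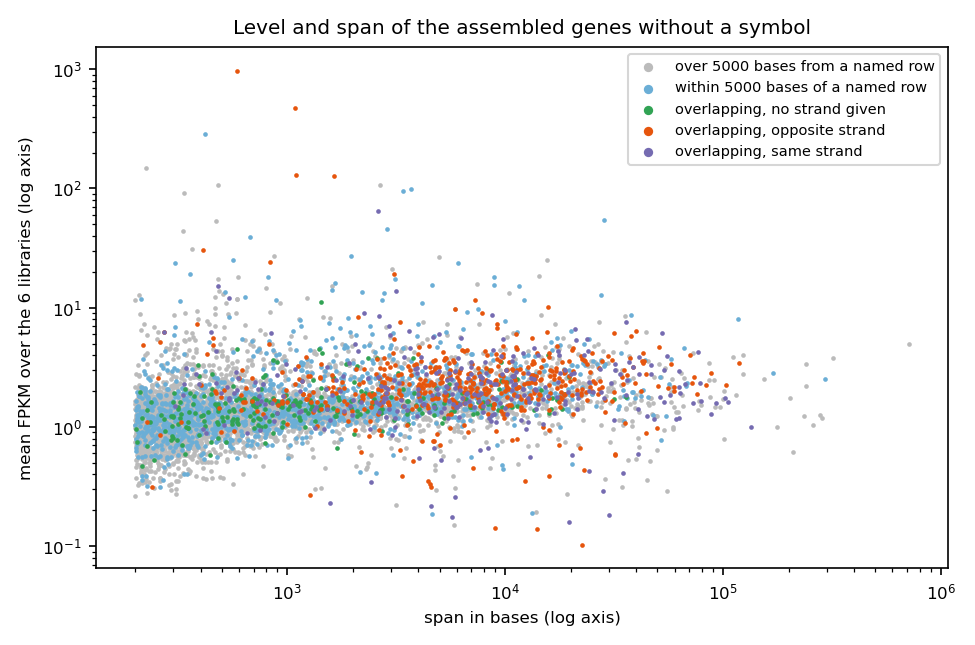
Mean FPKM over the 6 libraries (log axis) against genomic span in bases (log axis) for the 5818 assembled genes without a symbol, 1 point each, coloured by position relative to rows with a symbol. The points form a band around 1 to 2 FPKM, overlapping members with a strand lie to the right at longer spans, and 8 members reach 100 FPKM or more.

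Strand separated the members into 2 kinds. For 3745 of them (64.4%) the table gave no strand, and these had a median span of 479 bases and a median level of 1.29 FPKM. The 1105 members on the plus strand and 968 on the minus strand had a median span of 5331 bases together and a median level of 1.95 FPKM. Just 1 transcript had been assembled for 5600 of the 5818 members.

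The separate lncRNA table of the study listed 5135 of the members, with 5333 transcripts, all of them in the intergenic class. That class was assigned by the study, and some members in it, MSTRG.15267 among them, nevertheless overlapped the span of a named row. Of these members, 4249 had 1 exon and 886 had 2 or more, and the spliced ones had a median span of 7620 bases against 550 bases. The coding potential scores of the listed members reached at most 0.492 by CPC and -0.00041 by CNCI. Such limits may have been set by the filter that made the lncRNA table, so they are not a result about the members. The 683 members absent from that table were longer (median span 4056 bases) and slightly higher (median 1.82 FPKM) than the listed ones (749 bases and 1.40 FPKM). The 2 sets differ by the filter that made the lncRNA table, so these values describe that filter as well as the genes.

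In position, 3472 members (59.7%) lay more than 5000 bases from any row with a symbol, at a median distance of 33351 bases, and 662 lay over 100000 bases away. A further 1278 lay within 5000 bases without overlap. The remaining 1068 (18.4%) overlapped a named row, and 998 of those lay wholly inside named rows. By strand, 511 overlapped named rows of the opposite strand only, 302 overlapped at least one row of the same strand, and 255 had no strand. The overlapping members with a strand were the longest, with median spans of 6672 bases on the opposite strand and 6307 bases on the same strand, against 565 bases for the distant ones.

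Members beside a named row lay more often before its start than beyond its end. Of the 1278 within 5000 bases, 755 lay on the start side at a median distance of 1225 bases and 523 on the end side at a median of 2358 bases. Among those with a strand on the start side, 146 ran in the same direction as the named row, as MSTRG.3687 and MSTRG.2857 did, and 129 ran in the opposite direction at a median distance of 342 bases.

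The members were spread over all chromosomes. Chromosomes 1 and 2 held the most, with 506 and 508 members. Relative to the named rows tested there, chromosome 17 had 33.0 members per 100, chromosome 15 had 32.6 and chromosome X had 31.3, whereas chromosome 10 had 13.8 and chromosome 20 had 14.1.

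The highest levels belonged to 8 members of 100 FPKM or more, several of them beside ribosomal RNA rows. MSTRG.9652 on chromosome 14 (46517784 to 46518369), opposite the row AABR07015057, was the most abundant, with 1197, 1020 and 715 FPKM in CON and 610, 1365 and 917 FPKM in UAC. The groups overlapped and its log2 fold change was -0.05 (edgeR quasi-likelihood test, adjusted p = 0.977). MSTRG.9653, opposite the same row further along (46522248 to 46523346), had 86.6, 121 and 83.4 FPKM in CON and 65.0, 111 and 304 FPKM in UAC, so that UAC 3 stood above all others. The AABR07015057 row was also highest in UAC 3, with 70.1 FPKM there and between 12.3 and 25.6 FPKM in the other 5 libraries.

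MSTRG.23821 (chromosome 6, 30629167 to 30630247) lay opposite a row named 5_8S_rRNA, after a small RNA of the large ribosomal subunit that ribosomal depletion aims to remove. That row spans 30627939 to 30631889, and whether the member lies opposite the small RNA itself is not known. It had 470, 446 and 444 FPKM in CON and 358, 552 and 583 FPKM in UAC, with a log2 fold change of 0.10 (edgeR, adjusted p = 0.920). MSTRG.1156 (chromosome 1, 11971413 to 11973055) lay opposite another row of that name and was low in 4 libraries. Its counts were 0, 387 and 62615 in CON and 44552, 461 and 98 in UAC. In CON 3 and UAC 1 the ribosomal row held exactly the same counts, 62615 and 44552. MSTRG.1154, which has no strand and lies next to it (11973408 to 11973826), had 454, 372 and 0 FPKM in CON and 240, 356 and 305 FPKM in UAC, with a count of 0 in CON 3.

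MSTRG.1346 (chromosome 1, 36361171 to 36361394), a single exon of 224 bases lying 6415 bases from Srd5a1, was the highest of the members more than 5000 bases from a named row. Its levels were 226, 214 and 321 FPKM in CON and 107, 4.96 and 9.80 FPKM in UAC, so the groups did not overlap, and UAC 1 lay between the other libraries. The log2 fold change of -2.72 ± 1.06 (SE, n = 3 per group) had an unadjusted p of 0.0388 and an adjusted p of 0.538 by edgeR. Without UAC 1 it was -5.12 (edgeR, adjusted p = 0.0576), with the replicate block -4.02 (edgeR), and with limma -3.83 and -3.71 (pseudocounts of 0.1 and 1). Srd5a1 itself, which encodes a steroid reductase, had a log2 fold change of -0.01.

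Of the other abundant members, MSTRG.22750 and MSTRG.25098 varied little. MSTRG.22750 on chromosome 5 (138042658 to 138043136) had 99.3, 107 and 116 FPKM in CON and 96.4, 103 and 122 FPKM in UAC. MSTRG.25098 on chromosome 7 (3051234 to 3053906), lying 7563 bases from the lymphoid transcription factor gene Ikzf4, had 101, 87.6 and 113 FPKM in CON and 106, 91.4 and 135 FPKM in UAC, while Ikzf4 stayed between 0.966 and 1.40 FPKM. Neither passed a threshold by edgeR. MSTRG.6211 on chromosome 10 (103198402 to 103202092), the second highest of those within 5000 bases of a named row, had 71.2, 83.5 and 74.0 FPKM in CON and 116, 154 and 100 FPKM in UAC. All 3 UAC libraries lay above all CON libraries, and the log2 fold change of 0.66 ± 0.18 had an unadjusted p of 0.00872 and an adjusted p of 0.477 (edgeR), while DESeq2 gave an adjusted p of 0.0385. Its neighbour Ttyh2, a gene of the tweety family 3922 bases away on the same strand, had a log2 fold change of -0.08.

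Among members inside named rows, the highest on the same strand was MSTRG.11906 (chromosome 16, 75387312 to 75389928), in a row of the defensin genes Defa5, Np4, RatNP-3b and Defa11, which encode antimicrobial peptides of neutrophils and Paneth cells. It had 73.2, 65.5 and 42.8 FPKM in CON and 72.4, 63.1 and 72.9 FPKM in UAC, the groups overlapped, and the log2 fold change was 0.15 (edgeR, adjusted p = 0.863). The row merges several genes of the same family, so the division of reads among them and the member is uncertain. The highest overlapping members without a strand were MSTRG.22343, inside the row of the cartilage collagen gene Col27a1 and Mir455, and MSTRG.25215, inside the row of the histone methyltransferase gene Dot1l. MSTRG.22343 (chromosome 5, 79041881 to 79043307) had 14.1, 11.8 and 10.3 FPKM in CON and 7.81, 11.7 and 11.5 FPKM in UAC, close to the 8.43 to 14.1 FPKM of the Col27a1 row. MSTRG.25215 (chromosome 7, 11760451 to 11761853) had 2.92, 3.97 and 4.92 FPKM in CON and 6.04, 4.88 and 4.21 FPKM in UAC.

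The extremes of length and level were thinly supported. The longest member, MSTRG.3005 (chromosome 1, 180573634 to 181287219), spread 3 exons with 1174 bases of transcript over 713586 bases, and it had 4.75, 4.47 and 3.22 FPKM in CON and 4.66, 8.18 and 4.29 FPKM in UAC. MSTRG.10569 (chromosome 15), one of the 12 with the shortest span, had between 6 and 31 counts per library. Just above the 0.1 FPKM minimum lay MSTRG.29675, with 1308 counts in CON 1 and 0 in every other library, and MSTRG.19916, with 0 to 333 counts. Just below lay MSTRG.25624, with 244 counts in CON 2 alone, and MSTRG.16054, with 2 to 41 counts.

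The comparison of UAC with CON asked which of these loci changed under the altered bite. By edgeR's quasi-likelihood test over all 30668 genes of at least 0.1 FPKM, 2 members passed an adjusted p of 0.05 (Benjamini-Hochberg), 1 in each direction, against 6 of all genes (0.0196%). At the thresholds of the study, a p below 0.05 before adjustment together with a log2 fold change beyond 1 in either direction, 137 members were higher in UAC and 54 lower. That is 2.35% and 0.928% of the members, whereas over all genes tested 368 were higher (1.2%) and 209 lower (0.681%), or 1.88% in either direction. The share at an unadjusted p under 0.05, without a minimum change, was 9.09% of members and 9.08% of all genes. By direction these were 389 members higher (6.69%) and 140 lower (2.41%), against 4.69% and 4.39% of all genes. DESeq2 called 75 members at an adjusted p of 0.05 on the same counts, against 1.17% of all genes.

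The median log2 fold change of the members was 0.06, against -0.00 over all genes tested and -0.01 over the named rows, and it was 0.01 without UAC 3. The SD of the members' median level between replicates was 0.09 on the log2 scale, larger than this shift. All 3 UAC libraries lay above all CON libraries in FPKM for 651 members (11.2%), against 9.84% of all genes, and all 3 lay below for 226 (3.88%), against 5.87% of all genes. At the thresholds of the study, leaving out UAC 1 raised the number of lower members to 90 and leaving out UAC 3 raised it to 88. Over all 30668 genes tested, lower calls rose as well, from 209 to 422 without UAC 1 and to 264 without UAC 3. The number of higher members stayed between 130 and 154 whichever library was left out, and that of all genes between 364 and 448. Members of low level took many of the calls, with 48 higher and 22 lower among the 1073 between 0.1 and 1 FPKM. The share of all genes called in that band was not computed. A minimum mean of 1 FPKM left 94 higher and 34 lower members. Over all genes tested it also lowered the calls, from 368 to 230 higher and from 209 to 91 lower. Calls at low level were thus not confined to the members.

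By position, 93 of the 3472 distant members were higher (2.68%) and 40 lower (1.15%), against 1.2% and 0.681% of all genes. Of the 1278 within 5000 bases of a named row, 21 were higher (1.64%) and 10 lower (0.782%). Among these, 146 lay before a start on the same strand, the layout of MSTRG.3687 and MSTRG.2857. Of the 146, 3 were higher and 2 lower, the 2 lower being MSTRG.3687 and MSTRG.2857, so the layout did not go with a decrease. Of the members overlapping the same strand, 10 of 302 were higher (3.31%) and 2 lower (0.662%). Of those opposite a named row, 11 of 511 were higher (2.15%) and 2 lower (0.391%). Of the overlapping ones without a strand, 2 of 255 were higher (0.784%) and 0 lower. The overlapping named row made the same call for 2 of the 23 overlapping members that were higher and for 0 of the 4 that were lower. For members within 5000 bases the neighbour made the same call in 1 of 18 higher and 0 of 9 lower cases where it was tested. Over all 1063 overlapping pairs tested, Spearman's rho between the log2 fold change of the member and of its row was 0.17, and over 1165 pairs within 5000 bases it was 0.19, as a description across pairs that share libraries.

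**Figure D2:**
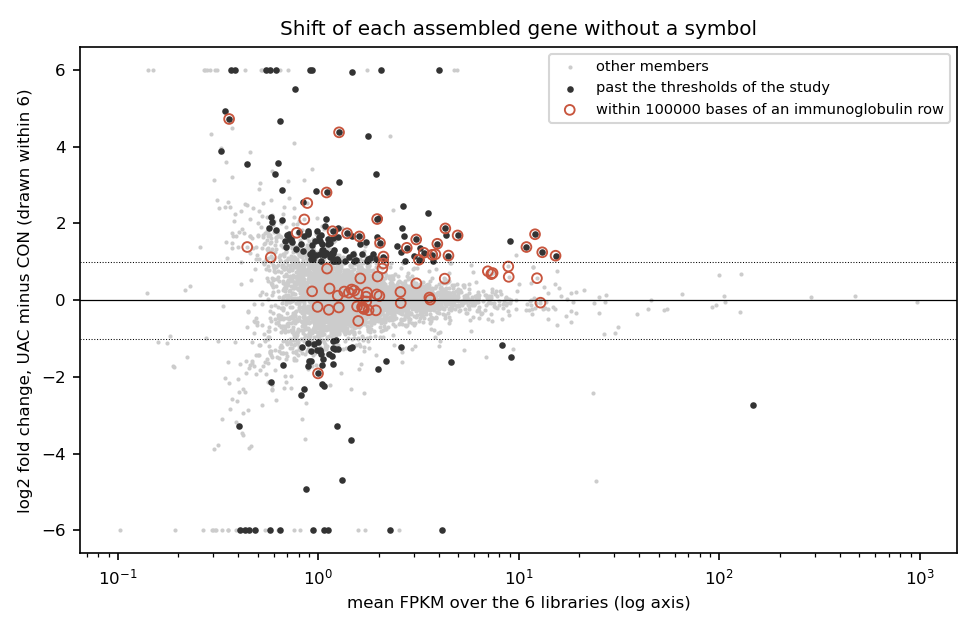
The log2 fold change, UAC minus CON, of each of the 5818 members against its mean FPKM (log axis), with changes beyond 6 drawn at 6. Dark points pass the thresholds of the study (137 higher, 54 lower). The 71 members near rows with a term for immunoglobulin production or recognition in phagocytosis, circled, lie mostly above 0.

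MSTRG.15267 was the member that rose with the smallest p. It is a spliced transcript with 2 exons and 3882 bases on chromosome 2 (79220101 to 79224101, minus strand). It lay inside the span of a merged row of Fbxl7 and AABR07008916 on the same strand, although its lncRNA class was intergenic. Fbxl7 encodes the substrate-binding part of a ubiquitin ligase. The counts of MSTRG.15267 were 0, 0 and 0 in CON and 400, 362 and 313 in UAC, which is 1.30, 0.984 and 1.02 FPKM in UAC. Set against a floor of 3 counts over the whole CON group, it was at least 392-fold higher in UAC (edgeR, adjusted p = 0.0287). It reached the minimum mean of 0.1 FPKM through the UAC libraries alone, so its selection and its p are not independent. The same holds for all 28 members at 0 in every CON library and, through CON, for the 29 at 0 in every UAC library. The Fbxl7 row around it had 3.66, 4.17 and 3.77 FPKM in CON and 3.21, 3.62 and 3.66 FPKM in UAC, with a log2 fold change of -0.19 (adjusted p = 0.633). Whether the reads of the member were drawn from those of the row was not tested. Leaving out UAC 1, UAC 2 or UAC 3 gave adjusted p of 0.0921, 0.0728 and 0.0932, and over all alternatives the adjusted p ran from 3.5e-16 to 0.445.

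MSTRG.3687, the one before Sf1 whose window is printed above, was the member that fell with the smallest p. It is a spliced transcript of 2 exons and 2857 bases on the plus strand of chromosome 1 (221728932 to 221732552). Its levels were 1.23, 1.36 and 1.58 FPKM in CON and 0.244, 0.240 and 0.285 FPKM in UAC, a clear separation with little spread inside either group. The log2 fold change was -2.47 ± 0.19 (SE, n = 3 per group), with an adjusted p of 0.0334 by edgeR. Sf1 had 10.5, 9.95 and 11.4 FPKM in CON and 11.7, 9.34 and 9.79 FPKM in UAC, and its log2 fold change was -0.09 (adjusted p = 0.799). Leaving out any 1 library gave an adjusted p between 0.0605 (CON 1) and 0.143 (CON 2), and over all alternatives it ran from 9.37e-20 to 0.295.

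MSTRG.2857, the one before Numa1, showed the same layout and lower levels in UAC, without passing the adjusted threshold by edgeR on all 6 libraries. Its counts were 1328, 1216 and 1420 in CON and 0, 0 and 19 in UAC, on chromosome 1 (167044774 to 167051193, plus strand). Its mean was 0.0124 FPKM in UAC, so it reached the minimum level through CON. The fitted log2 fold change of -7.55 ± 1.10 depends on the prior count, its unadjusted p was 0.000285 and its adjusted p 0.307 (edgeR). It passed in 4 of 14 alternatives, namely DESeq2, limma at both pseudocounts and edgeR without UAC 3, over which the adjusted p ran from 0.00655 to 0.771. Numa1 had 9.24, 9.24 and 9.53 FPKM in CON and 9.23, 8.23 and 7.74 FPKM in UAC, a log2 fold change of -0.20 (adjusted p = 0.542). This member is not in the lncRNA table, so its exons are not known here.

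**Figure D3:**
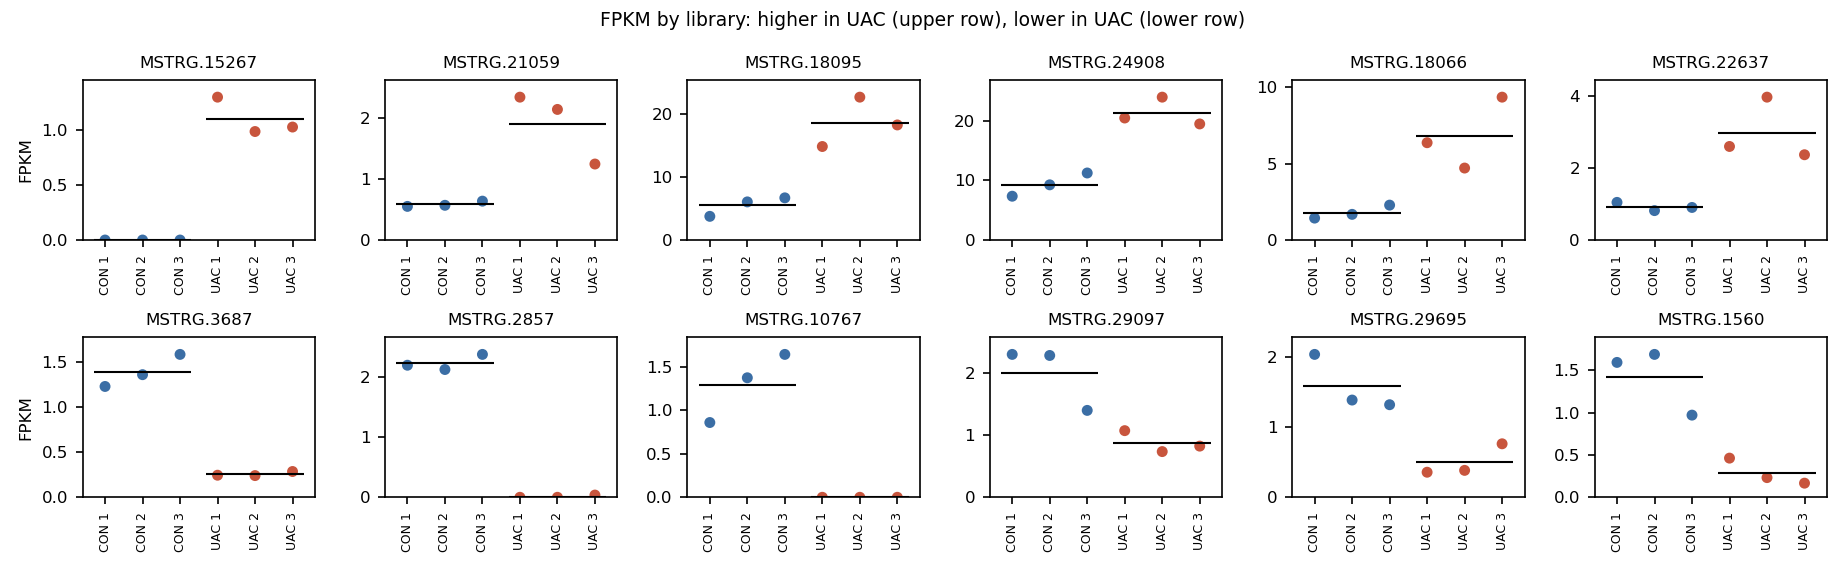
FPKM in each library (CON blue, UAC red) for the 6 higher and 6 lower members with the smallest p among those past the thresholds of the study whose groups did not overlap, with black lines at the group means. MSTRG.15267 is at 0 counts in all CON libraries, and MSTRG.2857 and MSTRG.10767 fall to 0 or nearly 0 in UAC.

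Of the other 5 higher members named for the smallest p, 3 lay near rows with an immunoglobulin-related term and are given with those further on. MSTRG.21059 (chromosome 4, 146552011 to 146560683, minus strand), inside a row of Atg7 on the same strand, a gene required for autophagy, had 0.552, 0.570 and 0.638 FPKM in CON and 2.35, 2.14 and 1.25 FPKM in UAC. The lowest UAC library lay well above the highest CON library, and the log2 fold change was 1.66 ± 0.23 (edgeR, unadjusted p = 0.000233, adjusted p = 0.306). The overlapping Atg7 row was also above CON in all UAC libraries, at 0.882 to 1.06 FPKM in CON and 1.19 to 1.96 FPKM in UAC, with a log2 fold change of 0.59 (unadjusted p = 0.0248, adjusted p = 0.513). MSTRG.22637 (chromosome 5, 132663431 to 132664184), a single exon with no strand and its nearest named row 27523 bases away, had 1.05, 0.819 and 0.906 FPKM in CON and 2.60, 3.97 and 2.37 FPKM in UAC (log2 fold change 1.64 ± 0.29, adjusted p = 0.423). DESeq2 gave adjusted p of 5.64e-09 for MSTRG.21059 and 0.000533 for MSTRG.22637.

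In the downward direction, the nearest named row of MSTRG.10767 and of MSTRG.29097 had no counts. That of MSTRG.29695, RGD1562136, had a log2 fold change of 0.30 (edgeR, unadjusted p = 0.0274, adjusted p = 0.520). That of MSTRG.1560, AABR07001555, had one of -0.31 (edgeR, unadjusted p = 0.108). MSTRG.10767 (chromosome 15, 41630735 to 41630952, 218 bases) had 18, 27 and 34 counts in CON and none in UAC, so it reached the minimum level through CON alone. With 3 counts as the floor for the whole UAC group it was at least 24.1-fold lower (edgeR, adjusted p = 0.423). MSTRG.29097 (chromosome 9, 52597137 to 52610962, minus strand), a spliced transcript of 6050 bases, had 2.297, 2.28 and 1.40 FPKM in CON and 1.07, 0.735 and 0.823 FPKM in UAC (log2 fold change -1.24 ± 0.24, adjusted p = 0.441). MSTRG.29695 on the same chromosome (111400753 to 111403949) had 2.04, 1.39 and 1.32 FPKM in CON and 0.357, 0.384 and 0.762 FPKM in UAC (log2 fold change -1.69 ± 0.35, adjusted p = 0.448). MSTRG.1560 (chromosome 1, 51513925 to 51514452), 2427 bases from the row AABR07001555, had 1.59, 1.69 and 0.970 FPKM in CON and 0.462, 0.232 and 0.167 FPKM in UAC (log2 fold change -2.32 ± 0.50, adjusted p = 0.448). In each of these 4 the groups did not overlap, as the rule for naming them required. None passed the adjusted threshold by edgeR, while DESeq2 gave adjusted p of 0.000964 for MSTRG.10767, 0.000133 for MSTRG.29097, 0.000377 for MSTRG.29695 and 0.012 for MSTRG.1560.

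Members near rows with an immunoglobulin-related term were more often higher than members overall. Immunoglobulin loci hold arrays of variable segments, from which plasma cells assemble and strongly transcribe the genes of their antibodies, and reference annotations name only part of the segments. Of the members, 71 lay within 100000 bases of one of 237 named rows with a Gene Ontology term for immunoglobulin production or for recognition in phagocytosis. The terms were matched as text, so these rows, called immunoglobulin rows here, need not be immunoglobulin genes. At the thresholds of the study 22 of the 71 were higher in UAC and 1 was lower, against 1.2% and 0.681% of all genes, and the median log2 fold change of the 71 was 0.62. By edgeR no member of the 71 passed the adjusted threshold, while DESeq2 called 15, all of them higher, where it called 1.17% of all genes in either direction. Their summed level was 137, 184 and 188 FPKM in CON and 305, 319 and 286 FPKM in UAC, so that all UAC libraries lay above all CON libraries. The list was chosen after earlier results on immunoglobulin genes in these libraries were known and is therefore a description.

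Chromosomes 3, 4 and 6 held 19 of these 22 higher members, 7 of 14 on chromosome 3, 5 of 12 on chromosome 4 and 7 of 20 on chromosome 6. On chromosomes 5, 10, 15, 17, 18 and X, 0 members of the list were higher, and the 1 lower member lay on chromosome 17. MSTRG.18095 (chromosome 3, 19296480 to 19297021, plus strand) had 3.76, 6.06 and 6.70 FPKM in CON and 14.9, 22.7 and 18.3 FPKM in UAC, with a log2 fold change of 1.72 ± 0.28 (edgeR, adjusted p = 0.423). It lay in a row of 6 merged loci beginning with AABR07051670, which had 2.35 to 5.55 FPKM in CON and 8.51 to 9.88 FPKM in UAC. MSTRG.24908 (chromosome 6, 141258162 to 141258640, minus strand), spliced and 393 bases long, had 7.34, 9.24 and 11.2 FPKM in CON and 20.4, 23.9 and 19.4 FPKM in UAC (log2 fold change 1.16 ± 0.19, adjusted p = 0.423). MSTRG.18066 (chromosome 3, 17517765 to 17518420, plus strand) had 1.44, 1.68 and 2.28 FPKM in CON and 6.37, 4.71 and 9.35 FPKM in UAC (log2 fold change 1.87 ± 0.32, adjusted p = 0.423). In all 3 the groups did not overlap, as that rule required. With DESeq2 the adjusted p was 6.89e-07 for MSTRG.18095, 3.12e-05 for MSTRG.24908 and 3.67e-05 for MSTRG.18066.

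Of the 5 plasma cell markers, 2 were higher in UAC and 1 was lower at an unadjusted p under 0.05 by edgeR. Summed over 5 of 5 markers found, none of them under 0.1 FPKM, they reached between 101 and 136 FPKM in CON and between 164 and 200 FPKM in UAC. Jchain, which joins antibody chains into polymers, had 41.3, 54.0 and 70.4 FPKM in CON and 132, 133 and 97.1 FPKM in UAC (edgeR, unadjusted p = 0.00145), and Mzb1, a chaperone of antibody secretion, had a log2 fold change of 0.88 (unadjusted p = 0.00345). Sdc1 had a log2 fold change of -0.22 (unadjusted p = 0.0496), and Xbp1 and Tnfrsf17 did not pass an unadjusted p of 0.05. The part of plasma cell number in the values of the 71 members was not tested. Immunoglobulin segments are close copies of each other, so the assignment of reads among them is uncertain. Without the 71 members, 115 of 5747 were higher (2%) and 53 lower (0.922%), against 1.2% and 0.681% of all genes.

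Some members were present in some libraries and absent in others. A count of 0 in at least 1 library together with at least 100 counts in another was found for 180 members (3.09%), against 275 of 24850 named rows tested (1.11%). Of the 180, 57 were at 0 in 1 library, 38 in 2, 32 in 3, 23 in 4 and 30 in 5. The 30 seen in a single library were spread over all of them, 6, 4 and 5 in CON 1, 2 and 3 and 7, 5 and 3 in UAC 1, 2 and 3. Just 1 of the 180, MSTRG.15267, was at 0 in all CON and in no UAC library, and 1 was at 0 in all UAC and in no CON library. Of the 180, 57 overlapped a named row.

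In some of these overlapping cases the counts were high on the member in the libraries where they were low on the named row of the opposite strand. MSTRG.14089 (chromosome 19, 25311087 to 25318580, minus strand) lay opposite the row of Mir23a, Mir27a and Mir24-2, 3 microRNAs made from one precursor transcript. It had 6225 counts in UAC 1 and 0 in the other 5 libraries. The microRNA row had 8086, 8556 and 7868 counts in CON, 158 in UAC 1, and 8618 and 6250 in UAC 2 and UAC 3. The row was thus at 1.95% of its median in the single library where the member appeared. Its fitted log2 fold change rests on UAC 1 alone (edgeR, adjusted p = 0.566). The mature microRNAs of that row with names ending in -3p, from RefSeq, are given 5′ to 3′ with the seed (bases 2 to 8) in capitals. They identify the transcript that the member opposes. In build GRCr8 all 3 lie on the minus strand of chromosome 19, whereas the gene table has their row on the plus strand. The build of that table was not given, so the strands cannot be compared between the sources.
rno-miR-23a-3p: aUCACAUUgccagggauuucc
rno-miR-27a-3p: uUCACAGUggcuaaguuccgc
rno-miR-24-3p: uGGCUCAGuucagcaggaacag

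MSTRG.25956 (chromosome 7, 98059726 to 98063708, plus strand) lay opposite the row of Fbxo32, a muscle ubiquitin ligase also known as atrogin-1. The member had 2234, 53 and 2106 counts in CON and 0, 2337 and 2100 in UAC, and the Fbxo32 row had 2234, 2284 and 450 in CON and 1944, 0 and 0 in UAC. In CON 1 both held the identical count. The Fbxo32 row was at 0 in UAC 2 and UAC 3, where the opposite member was at 2337 and 2100 counts. MSTRG.14089 and MSTRG.25956 were chosen after their values were seen.

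**Figure D4:**
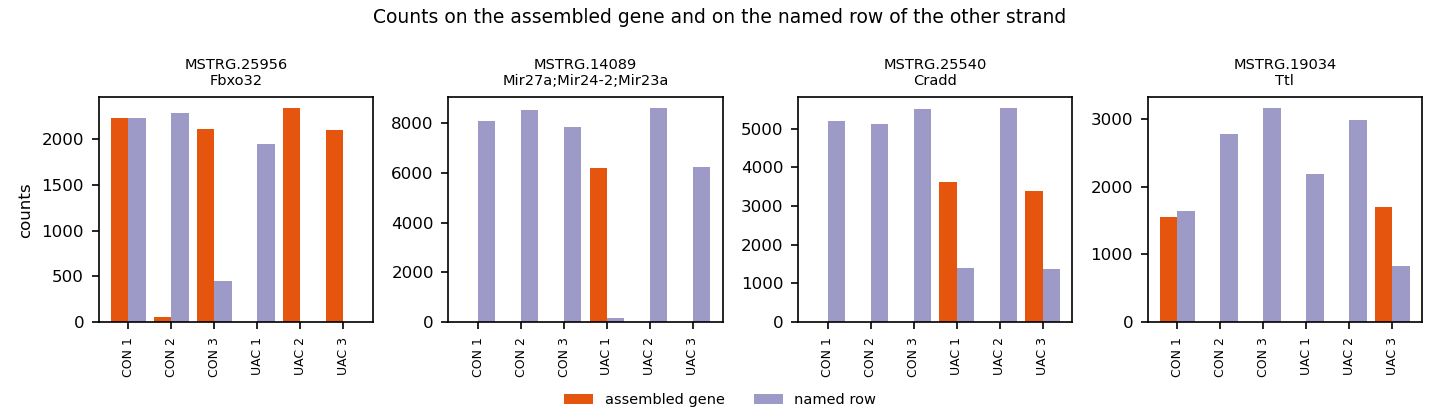
Counts in each library on 4 members (orange) and on the named row of the opposite strand (purple), 1 panel per pair. MSTRG.14089 appears in UAC 1 alone, where the microRNA row falls to 158 counts, and MSTRG.25540 in UAC 1 and UAC 3, where the Cradd row falls to 1404 and 1383 counts.

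In 5 further pairs the row was less low in the library where the member was highest. In 7 of the 56 overlapping members whose row had a median of at least 100 counts where the member was at 0, the row fell under 50% of that median in the library where the member was highest, and in 2, those just described, under 10%. MSTRG.25540 had 3633 and 3398 counts in UAC 1 and UAC 3 and 0 elsewhere, and the opposite row of Cradd, a death-domain adaptor gene, had 1404 and 1383 counts in these 2 libraries and between 5135 and 5535 in the other 4. MSTRG.6429, opposite the deacetylase gene Sirt7, had between 2863 and 3671 counts in 4 libraries and 0 in CON 3 and UAC 1, where the Sirt7 row had 5647 and 5325 counts against 1559 to 1934 elsewhere. Identical counts of at least 100 on the member and on its row occurred in at least 1 library for 11 of the 1068 overlapping members, 10 of them on the opposite strand only. Whether such rows hold the same reads was not tested, and the difference between groups for such a pair is uncertain.

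The share of a library held by all members was slightly larger in UAC when counted in reads. It was 4.53, 4.45 and 4.59% of counts in CON and 5.004, 4.64 and 4.92% in UAC, a mean of 4.52% ± 0.07 (SD, n = 3) against 4.85% ± 0.19, and all UAC libraries lay above all CON libraries. The exact two-sided permutation test over the 20 splits gave p = 0.10, the smallest that 3 against 3 can reach. In FPKM the direction turned, with 3.28% ± 0.08 in CON and 3.18% ± 0.34 in UAC (exact permutation test, p = 0.60, n = 3 per group), and the groups overlapped. Without the members that overlap a named row, an alternative chosen after seeing the data, the share of counts was 2.52% ± 0.05 in CON and 2.69% ± 0.14 in UAC (exact permutation test, p = 0.20, n = 3 per group), and the groups overlapped there too. The 8 most abundant members held between 3.76 and 4.71% of the members' counts in each library.

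**Figure D5:**
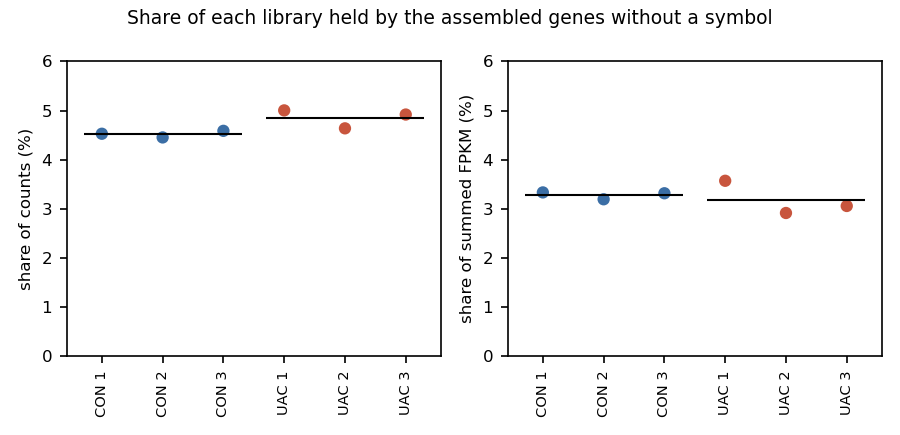
Share of all gene counts (left) and of summed FPKM (right) held by the 5818 members in each library, in percent, with CON in blue, UAC in red and black lines at the group means. In counts the UAC libraries (4.64 to 5.004%) lie above the CON libraries (4.45 to 4.59%), and in FPKM the groups overlap.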

How the data were processed

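Condylar cartilage of 3 CON and 3 UAC libraries was measured by RNA sequencing after ribosomal depletion. According to the study's methods and processing notes, cutadapt 1.9, FastQC, Bowtie2, Hisat2 and StringTie served for trimming, quality control, mapping and assembly. No source used here gives the genome build. The deposited gene table holds counts and FPKM values per gene and library, in which a gene without reads is listed at an FPKM of 0.0001. The deposited lncRNA table holds CPC and CNCI scores, exon numbers and lengths, and the deposited circRNA table holds junction read counts.

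Members are genes with an MSTRG identifier, no symbol and a mean FPKM of at least 0.1. Overlap and distance were taken from the table's own coordinates against rows with a symbol. Counts were fitted with edgeR 4.0.16 (TMM scaling, glmQLFit and glmQLFTest) over all genes of at least 0.1 FPKM, with Benjamini-Hochberg adjustment. R 4.3.3, limma 3.58.1, DESeq2 1.42.0 and Python 3.11.15 were used, and the fits were tested on simulated data. Alternatives were another scaling, other filters on low values, DESeq2, limma on log2(FPKM + 0.1) and log2(FPKM + 1), a replicate block, and each library left out.

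The genes named were those at an adjusted p under 0.05, the 6 per direction with the smallest p at the thresholds of the study, with groups that did not overlap and at least 0.5 FPKM, the 8 most abundant, the 2 most abundant of each position class, the longest and shortest, and those next to the minimum. The members and lists were chosen with earlier results of these data known. Columns of the authors' own comparisons and the coverage columns were not used. The sequences come from RefSeq, build GRCr8. The SE of a log2 fold change comes from the edgeR fit and includes the spread between libraries, whereas the floors cover counting error only.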

Additional observations from a re-analysis of the deposited data

How the results depend on the processing

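Against 2 members called at an adjusted p of 0.05 by edgeR, the count was 0 at a minimum mean of 1 FPKM (484 members at an unadjusted p under 0.05), 75 with DESeq2, 1 with limma at either pseudocount and between 2 and 5 without 1 library. Over all genes tested the main fit called 6. A minimum of 1 FPKM called 2, DESeq2 358, limma 3 and 2 (pseudocounts of 0.1 and 1), and edgeR without 1 library between 5 and 14. At the thresholds of the study, limma on log2(FPKM + 1) gave 40 higher and 23 lower members, a minimum of 1 FPKM gave 34 lower ones, and leaving out 1 library gave between 56 (without UAC 2) and 90 (without UAC 1) lower ones against 54. Over all genes tested, limma on log2(FPKM + 1) gave 130 higher and 45 lower. A minimum of 1 FPKM gave 91 lower, and leaving out UAC 2 or UAC 1 gave 246 and 422 lower, against 209. The median log2 fold change of the members ran from 0.01 (without UAC 3) to 0.10 (without UAC 2). The difference in library share was 0.33 percentage points in counts and -0.10 in FPKM. Deviations of same-numbered libraries over all genes tested had correlations of -0.02, -0.01 and -0.03. Such values cannot show whether these libraries shared a harvest that moved only some genes, so pairing by replicate number remains unknown. With the replicate block 0 members passed the adjusted threshold (472 at an unadjusted p under 0.05). At the thresholds of the study 142 members were then higher and 79 lower, against 361 and 219 of all genes tested.

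Abundant or unstable members turned direction: MSTRG.1156 had a log2 fold change of 0.996 and 0.22 with limma (pseudocounts of 0.1 and 1), 0.14 with the replicate block and between -6.17 and 6.32 without 1 library, against -0.31. MSTRG.25956 gave -0.34 with limma and a pseudocount of 0.1. Leaving out 1 library moved the log2 fold change between -0.42 and 0.20 for MSTRG.9652, -0.030 and 0.30 for MSTRG.23821, -0.51 and 0.62 for MSTRG.1154, -0.18 and 1.06 for MSTRG.9653, -0.15 and 0.048 for MSTRG.22750, -0.070 and 0.21 for MSTRG.25098, -0.058 and 0.31 for MSTRG.11906, -0.71 and 0.55 for MSTRG.10569, -0.39 and 1.17 for MSTRG.19916, and -0.44 and 0.71 for MSTRG.25956. The cause was not tested. Chosen after seeing the data, a window of 20000 bases around immunoglobulin rows held 31 members with 7 higher, and leaving out 1 library gave between 15 (without UAC 2) and 24 (without CON 3) higher ones against 22. Depth limits single members, since the median member had 634 reads over the 6 libraries.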

Other observations

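Members on chromosome Y were found in these libraries of female rats. There were 8, all single stretches of 203 to 455 bases with no strand, at mean levels of 1.09 to 1.88 FPKM, and together they held 284, 274 and 299 counts in CON and 379, 274 and 331 in UAC. Of the 48 named Y rows, 1 had a mean of at least 0.1 FPKM, at 3.36 FPKM. The named Y rows together held 235, 229 and 287 counts in CON and 171, 243 and 165 in UAC. Placement on chromosome Y does not show that it was transcribed in these female rats, and the origin of the reads was not tested.

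The circular RNA table listed 366 intergenic circRNAs among 7294, and 91 of them touched or spanned 93 of the members, 29 lying inside the span of 1 member. The most abundant was circRNA1572, which spans MSTRG.24952 on chromosome 6, at 90, 91 and 80 reads across the back-splice in the CON libraries against 97, 120 and 97 for UAC. Inside MSTRG.814 on chromosome X lay circRNA1454, at 13, 28 and 19 such reads in the CON libraries against 6, 6 and 0 for UAC. Junction reads are a separate measurement and were not compared between groups.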
